A study of Mus musculus with 12 samples.

Results

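T cells and natural killer (NK) cells are the lymphocytes that recognise and kill stressed or infected cells, and the genes described here are the parts of that machinery: the T cell receptor complex, its coreceptors, NK-type receptors, the granule proteins that kill target cells, and the transcription factors and cytokines of these cells. The list was chosen by gene symbol and holds 34 genes. Of these, 31 had a probe set with exactly that symbol, each of them 1 probe set, out of 19935 genes measured. The other 3, Lck, Cd244 and Tcf7, were not analysed here. Male mice of 8 to 10 weeks were given plain water or 4% w/v DSS (dextran sulfate sodium, which injures the lining of the colon) over 10 days. Their genotype was either wild type (WT littermates) or transgenic (TG) for Villin-Claudin-2, a transgene named for villin, a gene of the intestinal epithelium, and for the tight junction protein claudin-2. RNA labelled as from colon epithelial cells was measured on 12 Affymetrix arrays, 3 replicates in each of WT water, TG water, WT DSS and TG DSS. Nothing in the labels ties an array to a separate mouse, and the p-values below therefore rest on array-to-array spread that may be technical.

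The colon epithelium holds its own lymphocytes between the epithelial cells, many of them T cells with CD8 and granzymes, while helper T cells with CD4 lie mostly in the tissue beneath. A T cell reads antigen through its receptor, and the CD3 chains and CD247 pass the signal inward to the kinase ZAP70 and the adaptor LAT. Killing is done by perforin, which opens the target's membrane, and by granzymes, proteases that enter through it.

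Values are on the log2 scale and centred, with 0 at the 12-array median of each probe set. Such a value compares arrays for 1 gene and gives no absolute level, so levels of different genes were not compared, and whether the epithelial markers or these lymphocyte genes are abundant in the samples could not be read from it. In RNA from bulk tissue, more cells of a type and more RNA per cell cannot be told apart.

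Several arrays stood apart from the others. On the WT DSS arrays 677 to 3795 of 28815 probe sets deviated from 0 by over 1 log2 unit, against 22 to 285 on the other 9 arrays. WT DSS replicate 2 had a median of -2.08 over 15 pan-epithelial markers, against -0.21 to 0.11 on the other 11 arrays. WT DSS replicate 3 read low for Hox genes of the hind part of the gut (Hoxb13 at -5.36 and Hoxd13 at -4.26, against -2.65 and -0.70 on WT DSS replicate 2) and high for Sis and Alpi, which encode sucrase-isomaltase and intestinal alkaline phosphatase of small intestinal enterocytes (3.62 and 3.71). The same 2 enterocyte genes lay between -0.47 and 0.47 on the other 11 arrays. Claudin-2 itself (Cldn2) was 0.14 ± 0.44 higher in TG than in WT at water (limma SE, 3 arrays a group, spread pooled over the 4 groups, limma adjusted p = 1). Under DSS it was 1.04 ± 0.44 higher (limma adjusted p = 0.292). Cldn2 read -0.53, -2.28 and -0.12 on WT DSS replicates 1 to 3 and -0.24, 0.27 and 0.15 on TG DSS replicates 1 to 3. The difference under DSS thus rested largely on WT DSS replicate 2, and Cldn2 gave no reliable check of the genotype labels.

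Promoter sequence is shown for genes of the T cell receptor complex, the granzymes and Il7r because several of these members carried the largest DSS values and because neighbours among them read differently. Cd3g and Cd3d lie head to head with 1355 bases between their start sites, and Cd3e lies beside them. Of the measured members, 23 were matched by symbol in the RefSeq promoter table of GRCm38.p6. The 250 bases before the start site are printed 5′ to 3′ on the gene's strand, from chr9:45009612-45009861 (minus), chr9:44980432-44980681 (minus), chr9:44981536-44981785 (plus), chr13:113100982-113101231 (minus), chr14:56262335-56262584 (minus) and chr15:9529877-9530126 (minus). Capitals mark the motifs searched, none of which overlap in these windows: TGTGGT of RUNX factors, CAGGAA of ETS factors, AGATAA of GATA factors, GTGTGA of T-box factors and TGANTCA of AP-1 on both strands, and TATAAA on the gene's strand.
Cd3e: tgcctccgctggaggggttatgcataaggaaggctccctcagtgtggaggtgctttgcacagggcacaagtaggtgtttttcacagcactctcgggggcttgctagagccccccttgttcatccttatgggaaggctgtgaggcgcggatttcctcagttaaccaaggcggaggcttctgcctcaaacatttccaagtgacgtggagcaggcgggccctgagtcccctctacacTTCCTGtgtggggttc
Cd3g: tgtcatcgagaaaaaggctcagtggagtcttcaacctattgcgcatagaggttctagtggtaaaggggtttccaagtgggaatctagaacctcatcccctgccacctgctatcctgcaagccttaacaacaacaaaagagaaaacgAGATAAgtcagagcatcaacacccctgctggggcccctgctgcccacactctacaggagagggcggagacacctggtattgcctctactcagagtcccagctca
Cd3d: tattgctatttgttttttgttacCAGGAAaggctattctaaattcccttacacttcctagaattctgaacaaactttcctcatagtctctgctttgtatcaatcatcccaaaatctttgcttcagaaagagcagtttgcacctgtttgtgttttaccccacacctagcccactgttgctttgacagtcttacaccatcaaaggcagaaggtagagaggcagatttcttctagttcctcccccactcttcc
Gzma: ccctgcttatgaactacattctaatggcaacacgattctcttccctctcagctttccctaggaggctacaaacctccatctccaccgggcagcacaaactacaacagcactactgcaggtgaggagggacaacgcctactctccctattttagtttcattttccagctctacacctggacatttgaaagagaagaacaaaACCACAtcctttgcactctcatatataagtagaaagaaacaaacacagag
Gzmb: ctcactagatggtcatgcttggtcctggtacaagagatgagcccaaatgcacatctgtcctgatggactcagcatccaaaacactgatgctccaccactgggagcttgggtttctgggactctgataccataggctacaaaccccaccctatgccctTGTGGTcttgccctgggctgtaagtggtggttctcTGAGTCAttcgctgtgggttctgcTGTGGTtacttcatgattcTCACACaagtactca
Il7r: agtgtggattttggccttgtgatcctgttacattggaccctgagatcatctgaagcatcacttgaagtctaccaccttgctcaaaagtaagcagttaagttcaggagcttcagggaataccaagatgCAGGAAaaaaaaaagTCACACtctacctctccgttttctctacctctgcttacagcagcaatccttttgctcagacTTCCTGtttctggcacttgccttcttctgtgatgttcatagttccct

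The printed Gzma and Gzmb windows both hold the RUNX letters, Gzmb in 2 places, and the Gzmb window also holds the AP-1 and T-box letters. The RUNX letters occurred in 10 of the 23 members and in 14% of the 32851 start sites in the table. A member with several start sites counted if any held the motif, while the shares are over single start sites. The member counts can therefore run higher and are not directly comparable with the shares. The ETS letters occurred in 14 of 23 members and 25.7% of all start sites, and the T-box letters in 6 and 12.3%. The GATA letters occurred in 1 member, Cd3g, and in 9.99% of all start sites, the AP-1 letters in 1 member, Gzmb, and 6.75%, and the TATA letters in 2 members and 7.59%. These matches describe letters only.

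On the WT DSS arrays most of the lymphocyte genes read above water, and different arrays were high for different genes. Of the 31 genes, 27 had a WT DSS mean above the WT water mean, as did 40.6% of all genes. The median difference was 0.32, against -0.04 over all genes. None passed in limma at an adjusted p under 0.05, where 0.171% of all genes passed. At an unadjusted p under 0.05 there were 7, all higher, where 5.7% of all genes were higher and 9.55% lower at that threshold. For 8 genes the 3 WT DSS arrays lay wholly above the 3 WT water arrays, as did 5.45% of all genes, and for 0 wholly below, which held for 10.7%. The 8 were Cd3e, Cd3g, Lat, Klre1, Gzma, Gzmb, Gata3 and Il2rb. The median difference was 0.16 without WT DSS replicate 3 and 0.20 without WT water replicate 3.

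**Figure D1:**
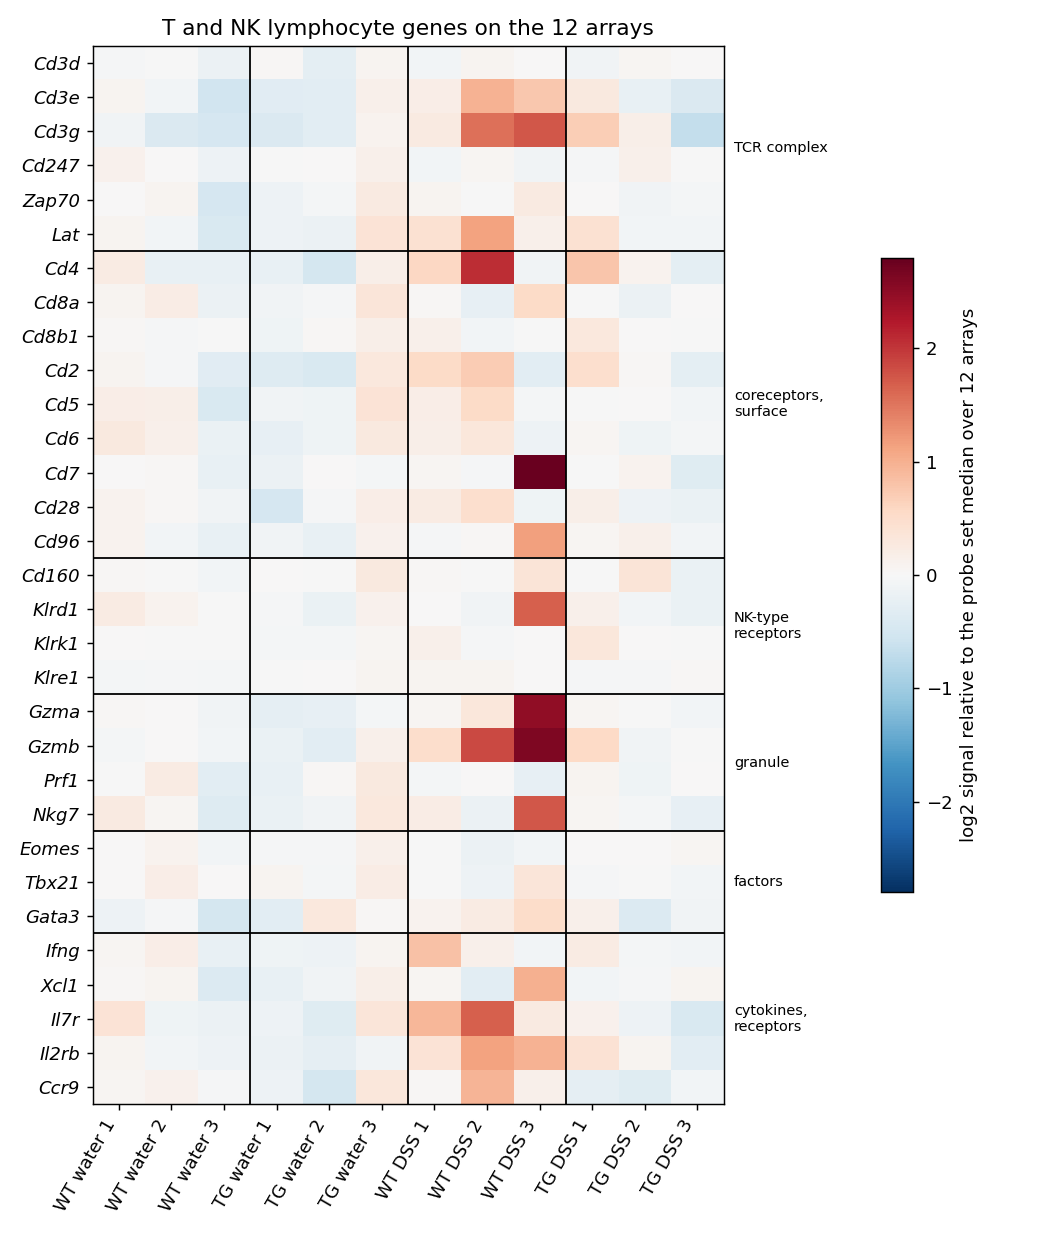
Centred log2 signal of the 31 measured T and NK lymphocyte genes (rows, by role) on the 12 arrays (columns, by group). Red fields gather in WT DSS replicates 2 and 3 and lie largely in different rows there: Cd4 and Il7r in replicate 2, Cd7, Gzma, Nkg7 and Klrd1 in replicate 3, and Cd3g and Gzmb in both.

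The T cell receptor complex split within itself. Cd3g read -0.09, -0.41 and -0.47 in WT water, -0.41, -0.29 and 0.09 in TG water, 0.26, 1.55 and 1.74 in WT DSS and 0.69, 0.17 and -0.68 in TG DSS (replicates 1 to 3 in each group). WT DSS replicates 2 and 3 stood above every other array, and the TG DSS arrays overlapped the water arrays. Cd3e read 0.07, -0.07 and -0.54 in WT water, -0.31, -0.30 and 0.14 in TG water, 0.19, 0.98 and 0.75 in WT DSS and 0.28, -0.22 and -0.41 in TG DSS. Here too WT DSS replicates 2 and 3 were the highest, and replicate 1 lay inside the range of the TG DSS arrays. The difference of DSS minus water in WT was 1.50 ± 0.41 for Cd3g (SE over 3 arrays a group, limma adjusted p = 0.141) and 0.82 ± 0.25 for Cd3e (limma adjusted p = 0.18).

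Cd3d, whose start site faces that of Cd3g, stood at 0.07 ± 0.11 in the same comparison, and its 12 values lay between -0.28 and 0.08. Cd247, which carries the strongest signalling tail of the receptor, stood at -0.03 ± 0.09, with all arrays between -0.14 and 0.15. The receptor chains therefore did not read alike: Cd3e and Cd3g spanned more than 1 log2 unit over the arrays, and Cd3d and Cd247 did not. Whether the flat genes were too dim to differ could not be read from centred values. Among the signalling proteins, the adaptor gene Lat read 0.43, 1.12 and 0.15 in WT DSS and stood at 0.71 ± 0.26 (limma adjusted p = 0.25), led by replicate 2 and 0.43 without it. The kinase gene Zap70 stood at 0.23 ± 0.15 (limma adjusted p = 0.507) and lay between -0.46 and 0.26 on all arrays.

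**Figure D2:**
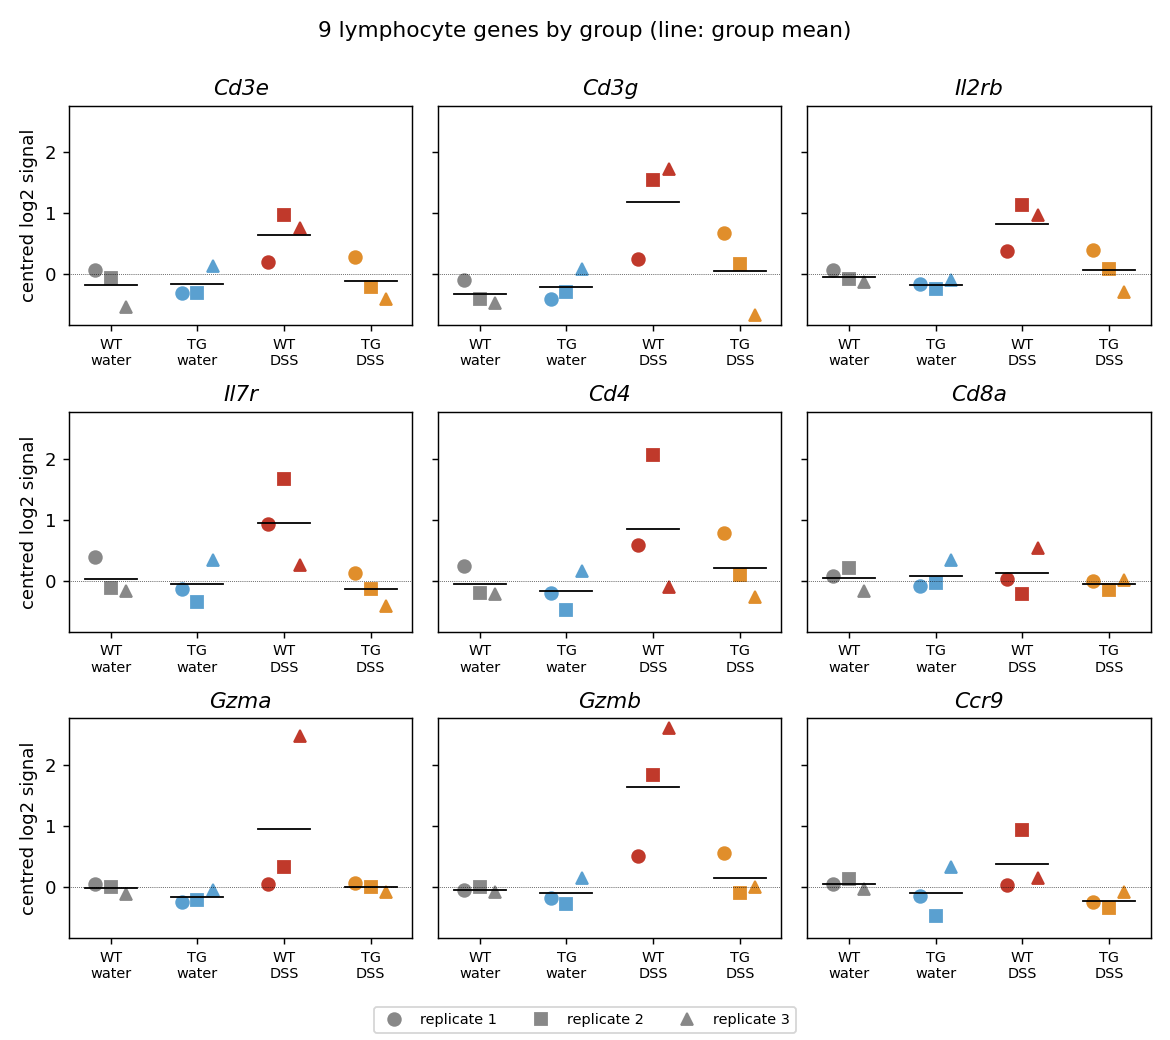
Centred log2 signal of 9 lymphocyte genes by group, with a marker for each replicate and a line at the group mean. WT DSS replicate 1 (circle) lies lowest of its group for Cd3e, Cd3g, Il2rb, Gzma, Gzmb and Ccr9, replicate 2 (square) leads for Cd4 and Il7r, and replicate 3 (triangle) leads for Gzma and Gzmb.

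Of the coreceptors, Cd4, which marks helper T cells and binds MHC class II, was led by WT DSS replicate 2. Cd4 read 0.23, -0.20 and -0.22 in WT water, -0.20, -0.48 and 0.16 in TG water, 0.58, 2.07 and -0.10 in WT DSS and 0.78, 0.10 and -0.26 in TG DSS. TG DSS replicate 1 read above WT DSS replicate 1, and WT DSS replicate 3 lay among the water arrays. The WT difference was 0.91 ± 0.47 (limma adjusted p = 0.39), and was 0.30 without WT DSS replicate 2 and 1.39 without replicate 3. Macrophages can also carry Cd4 in rodents, and the macrophage markers had medians of 1.13, 2.39 and -0.08 on WT DSS replicates 1 to 3 and 0.95, -0.29 and -0.16 on TG DSS replicates 1 to 3. Their part in the Cd4 values was not tested.

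Cd8a, which encodes the chain found in all CD8 coreceptors, followed another pattern. Cd8a read 0.07, 0.21 and -0.17 in WT water, -0.10, -0.03 and 0.34 in TG water, 0.03, -0.22 and 0.54 in WT DSS and -0.01, -0.16 and 0.01 in TG DSS. The highest array was WT DSS replicate 3 and the lowest was WT DSS replicate 2, and the groups overlapped. The WT difference was 0.08 ± 0.19 (limma adjusted p = 0.891). Cd8b1, the partner chain of conventional cytotoxic T cells, stood at 0.02 ± 0.11 (limma adjusted p = 0.948), and read -0.01 on WT DSS replicate 3.

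Among the remaining surface receptors, Cd96 and Cd7 rested on 1 array. Cd96 read 0.11, -0.07 and -0.22 in WT water, -0.11, -0.21 and 0.13 in TG water, -0.04, 0.04 and 1.15 in WT DSS and 0.06, 0.14 and -0.08 in TG DSS. Cd96 encodes a receptor of T and NK cells that binds nectin-family proteins, and it was high on WT DSS replicate 3 alone, with a difference of 0.44 ± 0.27 (limma adjusted p = 0.46), or 0.06 ± 0.13 without that array. Cd7, an early T and NK cell surface protein, read 0.05, -0.04 and 2.76 in WT DSS and -0.35 to 0.09 on the other 9 arrays. Its difference was 0.98 ± 0.59, and 0.06 ± 0.14 without WT DSS replicate 3. The values of Cd7 are given because of that array and were chosen after they were seen.

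Cd2, an adhesion receptor, and Cd28, the main costimulatory receptor, had their highest value on WT DSS replicate 2 (0.72 and 0.48) and stood at 0.41 ± 0.29 and 0.18 ± 0.19. Cd2 was 0.21 without that array and 0.72 without WT DSS replicate 3, and Cd28 was 0.045 and 0.34. Cd5 and Cd6, neighbouring genes for scavenger-type receptors that tune T cell signalling, stood at 0.24 ± 0.20 and 0.04 ± 0.17. For these 4 the limma adjusted p ran from 0.541 to 0.948. All 9 coreceptor and surface genes had a WT difference above 0 with all arrays, as did 40.6% of all genes (Cd6 was -0.07 without WT DSS replicate 2 and Cd8a -0.13 without replicate 3). An unadjusted p under 0.05 in limma was reached by 0 of them and by 15.2% of all genes.

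NK-type receptors were nearly flat with the exception of Klrd1 on 1 array. Klrd1 encodes CD94, which pairs with NKG2 proteins to read a nonclassical MHC molecule. Klrd1 read 0.22, 0.10 and 0.00 in WT water, -0.03, -0.18 and 0.12 in TG water, 0.00, -0.11 and 1.68 in WT DSS and 0.14, -0.07 and -0.19 in TG DSS. On the other 11 arrays it did not exceed 0.22. The WT difference was 0.42 ± 0.38 (limma adjusted p = 0.646) and -0.16 ± 0.13 without that array.

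Klre1, a lectin-like receptor of NK cells, stood at 0.10 ± 0.06 in WT (limma adjusted p = 0.472). Klre1 read -0.05, -0.03 and -0.06 in WT water, 0.00, 0.00 and 0.07 in TG water, 0.07, 0.08 and 0.01 in WT DSS and -0.02, -0.03 and 0.03 in TG DSS. The WT groups did not overlap although the difference was small. Klrk1 encodes NKG2D, which reads stress ligands on epithelial cells, and stood at 0.04 ± 0.09, with its highest value of 0.31 on TG DSS replicate 1. Cd160, a receptor of intraepithelial lymphocytes, stood at 0.14 ± 0.15 and read 0.35 on WT DSS replicate 3 and 0.36 on TG DSS replicate 2.

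The largest values of the whole set lay among the granule genes and Cd7. Gzmb read -0.06, 0.01 and -0.08 in WT water, -0.18, -0.29 and 0.14 in TG water, 0.50, 1.84 and 2.60 in WT DSS and 0.56, -0.10 and -0.01 in TG DSS. WT DSS replicates 2 and 3 stood above all other arrays, and TG DSS replicate 1 read slightly above WT DSS replicate 1. The WT difference of Gzmb, the granzyme that triggers caspases, was 1.69 ± 0.42, which is 3.24-fold (limma adjusted p = 0.117), and 1.22 ± 0.34 without WT DSS replicate 3. Gzma read 0.04, 0.00 and -0.11 in WT water, -0.24, -0.22 and -0.06 in TG water, 0.05, 0.33 and 2.48 in WT DSS and 0.06, 0.00 and -0.08 in TG DSS. For Gzma, a tryptase abundant in intraepithelial lymphocytes, the difference of 0.97 ± 0.49 (limma adjusted p = 0.376) rested on WT DSS replicate 3 and was 0.21 ± 0.11 without it.

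Nkg7, a membrane protein of cytotoxic granules, read 0.20, -0.16 and 1.74 in WT DSS and stood at 0.61 ± 0.40, or 0.04 ± 0.21 without WT DSS replicate 3. It was chosen after its values were seen. Perforin did not follow Gzma and Gzmb: Prf1 read -0.05, 0.01 and -0.22 in WT DSS, inside the range of the water arrays, and stood at -0.07 ± 0.15 (limma adjusted p = 0.883). Further granzyme genes outside the set, Gzmk and Gzmc, stood at -0.13 ± 0.11 and 0.11 ± 0.08, so not all granzymes read high in WT DSS. On WT DSS replicate 3 the median of the 4 granule genes was 2.11, on the array where the posterior Hox genes had a median of -1.41 and Sis and Alpi were high. The part of gut position in these values was not tested.

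Of the transcription factors, Gata3 differed most. Gata3 read -0.15, -0.03 and -0.50 in WT water, -0.29, 0.30 and 0.03 in TG water, 0.10, 0.22 and 0.51 in WT DSS and 0.13, -0.38 and -0.11 in TG DSS. Gata3 drives T cell development and type 2 helper cells, and epithelial and innate cells use it too. All 3 WT DSS arrays lay above the WT water arrays, with a difference of 0.50 ± 0.19 (limma adjusted p = 0.264), while the highest TG water array reached 0.30. Eomes and Tbx21, the T-box factors of cytotoxic and type 1 cells, stood at -0.09 ± 0.08 and -0.01 ± 0.13 (limma adjusted p = 0.65 and 0.988). Eomes read 0.02, 0.09 and -0.08 in WT water, -0.04, -0.04 and 0.14 in TG water, 0.00, -0.17 and -0.08 in WT DSS and 0.00, 0.01 and 0.05 in TG DSS, and all groups but TG DSS and WT DSS overlapped. Tbx21 read -0.02, -0.14 and 0.35 in WT DSS.

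Receptors for the cytokines that keep T cells alive were high on several arrays. Il2rb read 0.07, -0.07 and -0.13 in WT water, -0.17, -0.24 and -0.10 in TG water, 0.39, 1.14 and 0.97 in WT DSS and 0.40, 0.08 and -0.29 in TG DSS. Il2rb, the chain shared by the receptors for interleukins 2 and 15, had all 3 WT DSS arrays above all 6 water arrays, with a difference of 0.88 ± 0.20 (limma adjusted p = 0.102), the smallest p of the 31 genes, and TG DSS replicate 1 read as high as WT DSS replicate 1. Il7r read 0.38, -0.12 and -0.17 in WT water, -0.14, -0.35 and 0.33 in TG water, 0.92, 1.67 and 0.26 in WT DSS and 0.12, -0.14 and -0.42 in TG DSS. For Il7r, the interleukin 7 receptor of resting T cells and innate lymphoid cells, WT DSS replicates 1 and 2 lay above all other arrays, and replicate 3 lay below WT water replicate 1. Its difference was 0.92 ± 0.33 (limma adjusted p = 0.233), or 0.56 without WT DSS replicate 2.

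Ccr9, the homing receptor for the small intestine, was high on WT DSS replicate 2 alone. Ccr9 read 0.05, 0.12 and -0.03 in WT water, -0.15, -0.48 and 0.32 in TG water, 0.03, 0.94 and 0.15 in WT DSS and -0.25, -0.34 and -0.09 in TG DSS. Its WT difference was 0.32 ± 0.25 (limma adjusted p = 0.57) and 0.04 ± 0.19 without that array. WT DSS replicate 3, the array with high Sis and Alpi, read 0.15 for it, within the water arrays. Ifng, the cytokine of type 1 and cytotoxic cells, read 0.82, 0.14 and -0.07 in WT DSS and stood at 0.29 ± 0.21, or 0.025 without WT DSS replicate 1. Xcl1, a chemokine from activated CD8 and NK cells, read 0.06, -0.29 and 0.99 and stood at 0.35 ± 0.27, with its high value on the array where Cd7, Gzma and Gzmb were highest, and at -0.021 without it.

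**Figure D3:**
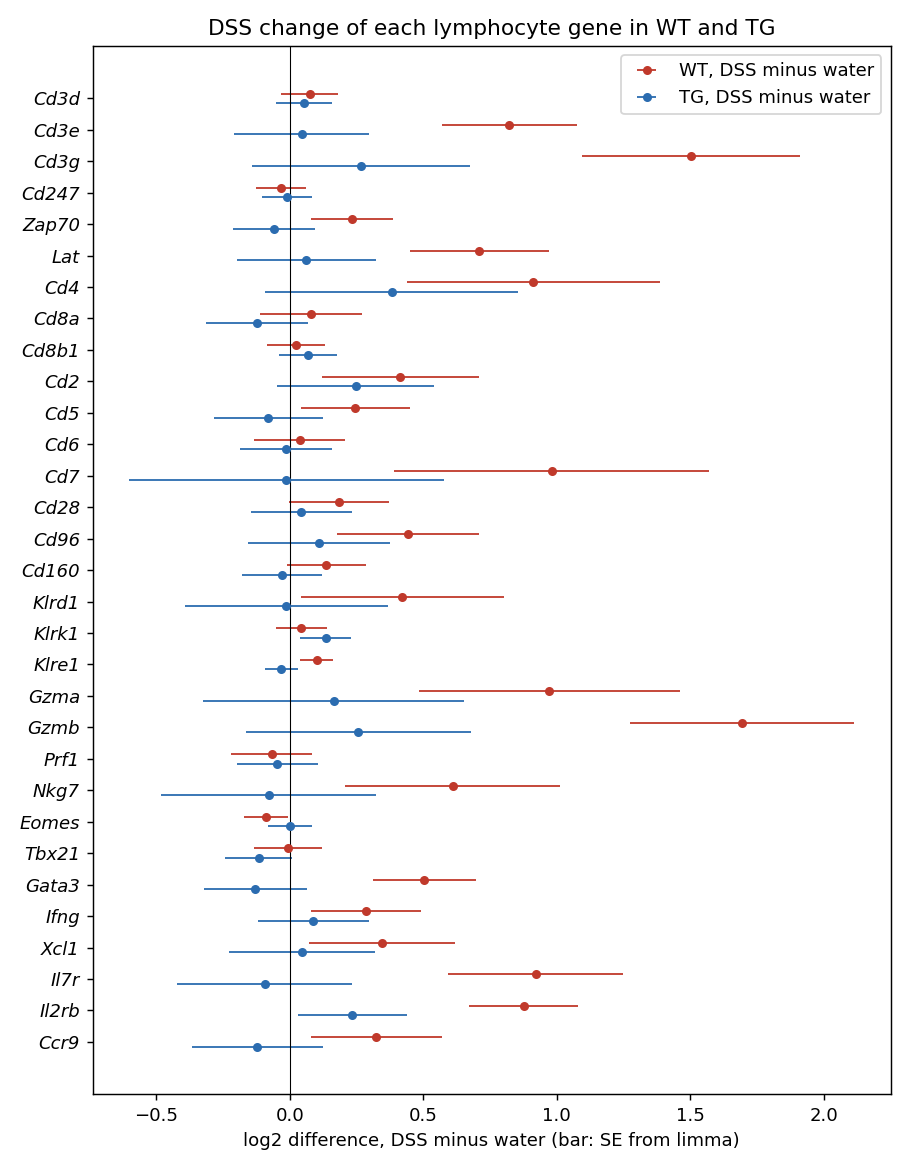
Difference of DSS minus water on the log2 scale for each of the 31 lymphocyte genes, in WT (red) and TG (blue), with bars for the limma SE from 3 arrays a group. Gzmb at 1.69 and Cd3g at 1.50 lie farthest to the right in WT, and no TG difference exceeds 0.38.

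Leaving out single arrays moved the count of passing genes. Without WT DSS replicate 1, 4 of the 31 genes passed in limma, where 4.61% of all genes did. They were Gzmb at 2.27 ± 0.25 (limma adjusted p = 0.00175), Il2rb at 1.10 (limma adjusted p = 0.00849), Cd3g at 1.96 (limma adjusted p = 0.0122) and Cd3e at 1.05 (limma adjusted p = 0.0459). Here and below, a fit without WT DSS replicate 1 takes the WT DSS mean from replicates 2 and 3 alone. These are the array with low pan-epithelial markers and the array with the lowest posterior Hox genes, so such passes rest on them. Over the alternatives run, the adjusted p lay between 0.00175 and 0.579 for Gzmb, 0.00849 and 0.506 for Il2rb, 0.0122 and 0.673 for Cd3g, and 0.0459 and 0.74 for Cd3e. Without WT DSS replicate 3, Il7r passed at 1.27 (limma adjusted p = 0.0495, range over alternatives 0.0495 to 0.644), where 2.88% of all genes passed. No other array left out gave a passing member in this comparison.

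Array by array, the 31 genes sorted differently. On WT DSS replicates 1, 2 and 3, 13, 14 and 15 of them lay above the range of all 6 water arrays, where 15.4%, 25.5% and 19.6% of all genes did. The same count was 11, 6 and 0 on TG DSS replicates 1 to 3, where 20%, 10.3% and 14.7% of all genes did. Below the water range lay 0, 3 and 0 genes on WT DSS replicates 1 to 3, where 25.2%, 36.2% and 22.8% of all genes did, and 0, 0 and 7 on TG DSS replicates 1 to 3, where 18.6%, 9.12% and 13.1% did. On the WT DSS arrays the lymphocyte genes thus lay mostly inside or above the water range, and few lay below it. A value more than 1 log2 unit above the mean of the water arrays was reached by 0, 7 and 9 genes on WT DSS replicates 1 to 3, where 2.21%, 9.82% and 2.05% of all genes reached it. It was reached by 0 genes on each TG DSS array, where 1.31%, 0.135% and 0.156% of all genes reached it.

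**Figure D4:**
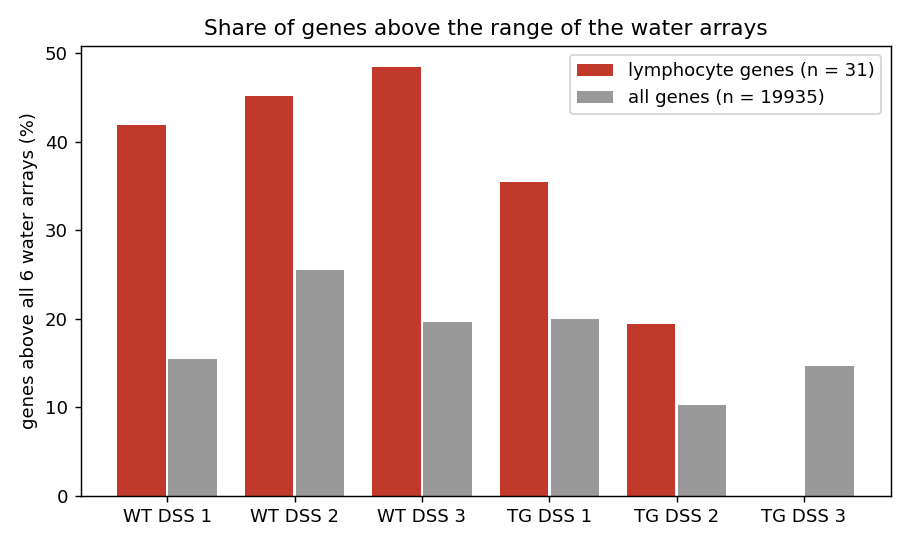
Share of genes above the range of all 6 water arrays on each DSS array, for the 31 lymphocyte genes (red) and all 19935 genes (grey). The lymphocyte share runs from 41.9% to 48.4% on the WT DSS arrays and from 0% to 35.5% on the TG DSS arrays.

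The array with the highest value was WT DSS replicate 3 for 12 genes and WT DSS replicate 2 for 11. Replicate 2 led for Cd3e, Lat, Cd4, Cd2, Cd5, Cd6, Cd28, Klre1, Il7r, Il2rb and Ccr9. Replicate 3 led for Cd3g, Zap70, Cd8a, Cd7, Cd96, Klrd1, Gzma, Gzmb, Nkg7, Tbx21, Gata3 and Xcl1. Over all genes these arrays led for 22% and 10.2%. Ifng was highest on WT DSS replicate 1.

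Markers of other cells differed between the same arrays. Neutrophil markers had medians of 2.16, 3.88 and 0.31 on WT DSS replicates 1 to 3, endothelial markers 0.76, 2.90 and -0.28, and fibroblast markers 1.07, 2.26 and -0.26. B and plasma cell markers had 1.20, -0.05 and -0.66. Averaged over each list, the array values ran from -0.08 to 2.44 for 15 of 17 macrophage markers, from 0.24 to 3.24 for 14 of 14 neutrophil markers and from -0.72 to 0.98 for 14 of 17 B and plasma cell markers in the WT DSS group. In the TG DSS group they ran from -0.24 to 0.89, from -0.07 to 0.78 and from -0.58 to 0.70. So WT DSS replicate 3, with the highest Gzma and Gzmb, had a macrophage median of -0.08 and a pan-epithelial median of 0.06, and replicate 2, with the highest Cd4 and Il7r, had high myeloid and low epithelial medians. With centred values it could not be read which markers are near background. Whether the makeup of the samples carried the lymphocyte values was not tested.

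The remaining lists are given for the same arrays. Dendritic cell markers had medians of 0.11, 0.34 and -0.06 on WT DSS replicates 1 to 3, mast cell markers -0.05, 0.24 and 0.03, and innate lymphoid and type 3 cytokine genes 0.05, 0.08 and -0.04. Smooth muscle markers had -1.04, 0.66 and 0.15, enteric neuron and glia markers 0.12, 1.02 and 0.42, and absorptive colonocyte markers -0.15, -1.99 and 0.08. The 14 small intestinal enterocyte genes had medians of -0.05, -0.16 and -0.02 and means of -0.10, -0.62 and 0.50. On WT DSS replicate 3, 3 of them lay more than 1 log2 unit above the water mean: Sis, Alpi and Fabp2 (1.63). In that list 1 gene, Rbp2 at -1.37, lay that far below. Of the absorptive colonocyte markers 2 lay that far above on this array, Slc51a highest at 3.91, and 4 that far below.

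**Figure D5:**
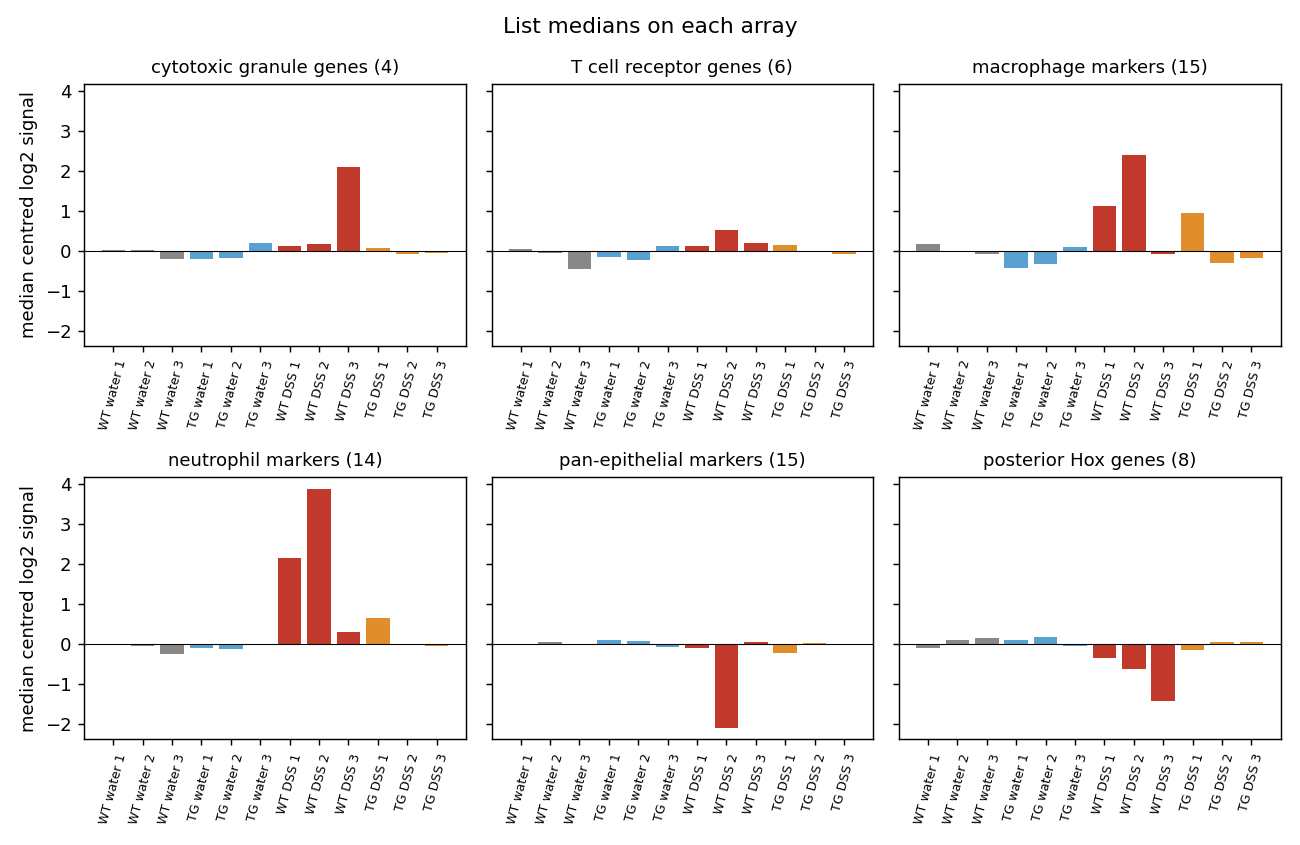
Median centred log2 signal of 2 groups of lymphocyte genes and 4 other lists on each of the 12 arrays (bars coloured by group; number of genes in each title). The granule genes peak on WT DSS replicate 3 at 2.11, where the posterior Hox genes are lowest at -1.41, while macrophage and neutrophil markers peak on WT DSS replicate 2 at 2.39 and 3.88.

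Other genes of T and NK cells gave a median WT difference of 0.31 over the 57 of 60 that were measured. Of these 48 lay above 0, as did 40.6% of all genes. In limma 1 of them passed, the chemokine gene Ccl5, against 0.171% of all genes, and at an unadjusted p under 0.05 there were 21 higher and 1 lower, against 5.7% and 9.55% of all genes. By array the list had its lowest WT DSS median on replicate 3, with 0.22, 0.29 and 0.07 on replicates 1 to 3, while the 31 genes had 0.10, 0.08 and 0.26. More than 1 log2 unit above the mean of the water arrays lay 10, 18 and 1 of the 57 on these arrays, against 0, 7 and 9 of the 31. The 2 lists therefore did not read alike on WT DSS replicate 3, a difference that was not tested. Ccl5 read 0.08, -0.03 and -0.50 in WT water, -0.27, -0.23 and -0.01 in TG water, 1.50, 1.70 and 2.49 in WT DSS and 0.07, 0.01 and -0.36 in TG DSS. The 3 WT DSS arrays were above all others, with a difference of 2.05 ± 0.25 (limma adjusted p = 0.0267). The call of Ccl5 depended on the fit. It did not pass with the replicate block, on the compared groups alone or with weights per group, where no gene passed. Ccl5 is made by T and NK cells and by other cells, epithelium among them. The next smallest p-values belonged to Gimap3, a GTPase of lymphocyte survival, at 0.86 ± 0.16, Stat4, which relays interleukin 12, at 0.99 ± 0.20, Bcl11b, a T lineage factor, at -0.70 ± 0.17, and Cd69, an activation marker, at 0.97 ± 0.28 (limma adjusted p = 0.0677, 0.0765, 0.119 and 0.169). Bcl11b read -0.40, -0.99 and -0.56 in WT DSS, below its water arrays, which lay between -0.11 and 0.29.

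In TG mice the lymphocyte genes showed no common shift under DSS. The median difference was 0.00, against -0.01 over all genes, and 16 of 31 genes lay above 0, as did 46.2% of all genes. None passed in limma, where 0% of all genes passed, and 0 had an unadjusted p under 0.05, where 2.38% of all genes did (1.21% higher and 1.17% lower). For 0 genes did the TG DSS arrays lie wholly above or wholly below the TG water arrays, where 6.76% and 6.64% of all genes did. The smallest p-values belonged to Klrk1 at 0.13 ± 0.09, Il2rb at 0.23 ± 0.20, Tbx21 at -0.12 ± 0.13, Cd2 at 0.25 ± 0.29 and Cd4 at 0.38 ± 0.47 (SE over 3 arrays a group, limma adjusted p = 1 in all 5). Without TG water replicate 3 the median was 0.12. The pooled spread takes in the scattered WT DSS arrays, which makes these tests conservative for genes that vary there. A small count at an unadjusted p under 0.05 is therefore weak evidence that DSS changed nothing in TG. For the same genes the pooled spread can be too small where WT DSS is compared with a single other group, which makes those tests liberal. Gzmb, for example, had an SD of 1.06 over the WT DSS arrays and 0.05 over the WT water arrays.

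The TG DSS arrays also differed among themselves. TG DSS replicate 1 read highest of its group for Cd4 at 0.78, Cd3g at 0.69, Gzmb at 0.56, Cd2 at 0.48, Lat at 0.42 and Il2rb at 0.40. Its macrophage and B cell medians were 0.95 and 0.70. TG DSS replicate 3 read lowest for Cd3g at -0.68, Il7r at -0.42, Cd3e at -0.41 and Cd7 at -0.35, with a B cell median of -0.60. Of the 57 other T and NK cell genes 0 passed in TG, with a median of 0.04, and 34 lay above 0, as did 46.2% of all genes.

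At water the genotypes were close for this set. The median of TG minus WT was 0.01 over the 31 genes and 0.01 over all genes. Of the 31, 17 lay above 0, as did 54.7% of all genes. None passed in limma, where 0% of all genes passed, and 0 had an unadjusted p under 0.05, where 0.306% of all genes did. The smallest p-values belonged to Gata3 at 0.24 ± 0.19, Klre1 at 0.07 ± 0.06, Zap70 at 0.14 ± 0.15, Cd160 at 0.10 ± 0.15 and Lat at 0.17 ± 0.26 (each with a limma adjusted p of 1). Klre1 was the gene of the set whose TG water arrays lay wholly above the WT water arrays, as did 1.93% of all genes, and 0 lay wholly below, which held for 3.05%. Zap70 turned to -0.035 without WT water replicate 3 and Lat to -0.0062 without TG water replicate 3. The array medians over the 31 genes were 0.05, 0.01 and -0.17 in WT water and -0.15, -0.12 and 0.15 in TG water, so replicates of a genotype differed by more than the genotypes did.

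Under DSS the set read lower in TG than in WT. The median of TG minus WT was -0.26, against 0.04 over all genes, and 5 of the 31 lay above 0, as did 57.9% of all genes. These values share the WT DSS arrays with the comparison in WT. None passed in limma, where 0.0401% of all genes passed. At an unadjusted p under 0.05 there were 6, all lower, where 5.63% of all genes were lower and 10.3% higher: Il2rb at -0.77 ± 0.20, Gzmb at -1.50 ± 0.42, Il7r at -1.10 ± 0.33, Cd3e at -0.76 ± 0.25, Cd3g at -1.12 ± 0.41 and Ccr9 at -0.60 ± 0.25 (limma adjusted p between 0.14 and 0.284). Ccr9 was -0.31 without WT DSS replicate 2 (limma adjusted p = 0.553, and 0.121 and 0.16 without replicates 1 and 3). For Il7r and Ccr9 the TG DSS arrays lay wholly below the WT DSS arrays, which held for 4.9% of all genes, and for Eomes, at 0.11, wholly above, which held for 14.1%.

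Without WT DSS replicate 1, Il2rb at -0.99, Gzmb at -2.07 and Cd3g at -1.58 passed (limma adjusted p = 0.0119, 0.00228 and 0.0268), where 5.85% of all genes passed. Over the alternatives run, their adjusted p lay between 0.0119 and 0.7, 0.00228 and 0.714, and 0.0268 and 0.963. Without WT DSS replicate 3 the median was -0.10, with 11 genes above 0. Among the other T and NK cell genes, Ccl5 passed at -1.99 ± 0.25 (limma adjusted p = 0.0413), though not with the replicate block. Of these 57 genes 13 lay above 0, where 57.9% of all genes did.

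The direct test of whether DSS acted differently in the genotypes is the interaction, the DSS difference in TG minus that in WT. Its median over the set was -0.30, against 0.01 over all genes, and 5 of 31 genes lay above 0, where 52.2% of all genes did. None passed in limma, where 0% of all genes passed. At an unadjusted p under 0.05 there were 3, all lower, where 1.27% of all genes were lower and 4.58% higher: Gzmb at -1.44 ± 0.59, Gata3 at -0.63 ± 0.27 and Il2rb at -0.64 ± 0.29. Il7r stood at -1.02 ± 0.46 and Cd3e at -0.78 ± 0.36, and the limma adjusted p of these 5 lay between 0.827 and 0.852. Without WT DSS replicate 1, Gzmb passed at -2.01 (limma adjusted p = 0.0261, range over alternatives 0.0261 to 0.981), where 1.2% of all genes did. The median was -0.14 without WT water replicate 3, -0.17 without TG water replicate 3 and -0.15 without WT DSS replicate 3.

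Averaged over both genotypes, the DSS difference had a median of 0.19 over the set and -0.03 over all genes. Of the 31 genes, 26 lay above 0, as did 41.1% of all genes. None passed in limma, where 0.00502% of all genes passed. At an unadjusted p under 0.05 there were 4, all higher, where 4.01% of all genes were higher and 6.83% lower: Il2rb at 0.56 ± 0.14, Gzmb at 0.98 ± 0.30, Cd3g at 0.88 ± 0.29 and Cd3e at 0.43 ± 0.18 (n = 6 arrays per treatment; limma adjusted p between 0.221 and 0.427). Lat stood at 0.39 ± 0.18 (limma adjusted p = 0.485). For 0 of the 31 genes did all 6 DSS arrays lie above all 6 water arrays, as 0.231% of all genes did. Without WT DSS replicate 1, Il2rb, Gzmb and Cd3g passed (limma adjusted p = 0.027, 0.00953 and 0.0471), where 1.58% of all genes did. Over the alternatives run these adjusted p-values reached 0.502, 0.665 and 0.702.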

How the data were processed

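The deposited table holds log2 signals of 28815 probe sets on 12 arrays; per the submitters' processing notes, the authors summarised them with RMA in Affymetrix Expression Console, with no version or log base named there. Every probe set had a 12-array median of 0 (largest departure 5e-07), which leaves centred values and no way to filter dim probe sets. Of the probe sets, 21780 with exactly 1 gene symbol in the platform annotation were averaged to 19935 genes, and 1605 with several symbols and 5430 with none were left out. Groups came from the sample titles, with 3 arrays each. With limma 3.58.1 (lmFit and eBayes, under R 4.3.3), 4 group means were estimated jointly from the 12 arrays, leaving 8 residual degrees of freedom. The spread of each gene was pooled over the 4 groups and moderated by eBayes, and every SE printed comes from it. For genes that scatter most in WT DSS, this SE can be too small for WT DSS against a single other group. It can be too large for comparisons without WT DSS. Two-sided p-values received a Benjamini-Hochberg adjustment over all genes, and genes under 0.05 passed. An exact permutation test of 3 against 3 arrays cannot go below p = 0.1 and was not used. The fit was tested on simulated data, and no outcome of that test is given or used here. Python 3.11.15 with matplotlib 3.10.9 drew the figures. The number of arrays limits the precision.

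The members and all gene lists were chosen with earlier results of these data known, and the lists for small intestinal enterocytes and posterior Hox genes were added after the values were seen. All 34 genes are named. Fit statistics were printed for passing genes, for the 10 with the smallest p for DSS in WT and the 5 with the smallest p elsewhere, and briefly for the others. Values on every array were printed for the 2 genes of each role with the smallest p and for Cd3e, Cd8a, Gzma, Gzmb and Ccr9, and the 5 other T and NK cell genes with the smallest p were named. Cd7, Nkg7, Xcl1, Gzmk, Gzmc, Hoxb13, Hoxd13, Sis, Alpi, Fabp2, Rbp2 and Slc51a, and some array values of other members, were chosen after their values were seen. Alternatives were a fit on the compared groups alone, a replicate block, centring of arrays, trend and robust eBayes, weights per group, a single probe set per gene, a filter on spread and the omission of each array. Replicate numbers were checked for pairing: deviations of same-numbered arrays correlated between -0.484 and 0.377, and no comparison had all 3 pairs above 0.1.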

Additional observations from a re-analysis of the deposited data

Results flagged for a closer look

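Zap70 read apart in the genotypes under DSS: each WT DSS array lay above the mean of the WT water arrays and each TG DSS array lay below the mean of the TG water arrays, with an interaction of -0.29 ± 0.22 (limma adjusted p = 0.855), so the test of the difference did not pass. The narrowest of these gaps was TG DSS replicate 1 at 0.0121 against a TG water mean of 0.0136. Both water means of Zap70 leaned on replicate 3, with 0.01, 0.08 and -0.46 in WT water and -0.15, -0.06 and 0.25 in TG water. WT DSS replicate 2 at -0.01 lay below WT water replicates 1 and 2, and every TG DSS array lay above TG water replicate 1. Klre1 differed between treatments in the same way: each TG water array lay above the WT water mean and each TG DSS array below the WT DSS mean, with an interaction of -0.13 ± 0.09 (limma adjusted p = 0.852), which did not pass either.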

How the results depend on the processing

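In every setting that kept all 12 arrays, and in the fits on the compared groups alone, 0 of the 31 genes passed in any comparison. With the replicate number as a block the count of passing members was 0 in all 6 comparisons, and 0 of all genes passed. The main fit also called 0 members, so a loss of calls through the block could not show in the member count. Over all genes 34 passed for DSS in WT, against 0 with the block, 67 without the 25% of genes with the smallest spread, 0 with the fit on the compared groups alone or with weights per group, 2 with trend and robust eBayes, 158 with both WT DSS replicates 2 and 3 left out, and 0 to 919 with 1 array left out. Leaving out 1 array at a time gave 0 to 4 passing members for DSS in WT, 0 to 3 for TG minus WT under DSS, 0 to 1 for the interaction and 0 to 3 for DSS averaged over genotypes. It gave 0 for DSS in TG and for TG minus WT at water. The median difference over the members ran from 0.16 to 0.37 for DSS in WT, from -0.0455 to 0.12 for DSS in TG, from -0.36 to -0.10 for TG minus WT under DSS and from -0.39 to -0.14 for the interaction. At water Zap70 ran from -0.035 to 0.24 and Lat from -0.0062 to 0.28. Without the 25% of genes with the smallest spread, the medians were -0.39 for TG minus WT under DSS and -0.43 for the interaction, with 25 of the 31 members left. With both WT DSS replicates 2 and 3 left out, an alternative chosen after seeing the data, the medians were 0.15 for DSS in WT, -0.13 for TG minus WT under DSS and -0.12 for the interaction, and 0 members passed. That fit has 1 WT DSS array and takes its spread from the other groups. The fit on the compared groups alone has no separate form for the interaction and the averaged DSS difference. Quantile normalization on top of the deposited values was not run, because centred values would have their true spread made equal. Centred signals hold no level over background, so it is not known which flat genes, such as Cd3d or Klre1, were too dim to show a difference.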
